A study of Mus musculus with 4 samples.

Results

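Dcpp1, Dcpp2 and Dcpp3 are the demilune cell and parotid protein genes of the mouse, and they are 3 of the 32285 genes counted in single cells of 2 salivary glands, the submandibular (SMG) and the sublingual (SLG). They were picked by name because earlier results of these data showed them among the most abundant transcripts and unevenly spread over barcodes, so their levels are given as a description and without a test. The cells were primary cells, freshly dissociated with a mixture of tissue-digesting enzymes, from wild-type female C57BL/6N mice of 6 to 8 weeks that received no treatment. Transcripts were counted as unique molecular identifiers (UMIs) in 10x Genomics 3′ libraries. The labels list 4 samples, all of both glands together, and name 2 mice, while the counts are 1 matrix of 15707 barcodes with 1 barcode suffix and 0 repeated barcodes. The matrix therefore counts as 1 sample, and the gland, mouse or library of a barcode cannot be told. No difference below carries a p-value, and each 95% interval (exact Poisson for a level, exact binomial for a share) covers counting error only.

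Demilunes are caps of serous cells that sit on the ends of the mucous tubules of the sublingual gland. Their granules hold secreted proteins that pass into saliva, and the Dcpp proteins, small proteins with a lectin-like fold, are named after them. Mucous cells next to them make Muc19, the large gel-forming mucin of mouse saliva, whereas serous acinar cells of the submandibular gland are rich in Mucl2, a short mucin-like protein. A marker of each neighbouring secretory cell can therefore be read beside the Dcpp genes in the same barcode.

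The 3 genes lie side by side on the plus strand of chromosome 17. In the GRCm38 build with the GENCODE annotation, Dcpp1 (ENSMUSG00000096445) spans chr17:23880876-23882853, Dcpp2 (ENSMUSG00000096278) spans chr17:23880880-23900788 and Dcpp3 (ENSMUSG00000057417) spans chr17:23917458-23919441. The annotated spans of Dcpp1 and Dcpp2 overlap because 1 of the 3 Dcpp2 transcripts starts at chr17:23880880-23880909, inside the first exon of Dcpp1. Their coding sequences are 513, 513 and 510 bases long. Base identity of the coding sequence was 93.8% between Dcpp1 and Dcpp2, 93.2% between Dcpp1 and Dcpp3, and 95.3% between Dcpp2 and Dcpp3. The last 168 bases of the transcripts were the same in all 3 genes, and 62 of these follow the last coding base. A read that lies wholly in that shared end names no single gene. The 90 coding bases just before it are shown because they hold the differences nearest to the 3′ end, with the 18 positions at which the 3 genes are not all alike in capitals. Dcpp1 alone differed at 13 of these positions, Dcpp2 alone at 3 and Dcpp3 alone at 2.
Dcpp1, chr17:23882596-23882685, exon 4: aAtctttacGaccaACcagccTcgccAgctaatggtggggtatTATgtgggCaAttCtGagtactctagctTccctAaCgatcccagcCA
Dcpp2, chr17:23900531-23900620, exon 3 of its longest transcript: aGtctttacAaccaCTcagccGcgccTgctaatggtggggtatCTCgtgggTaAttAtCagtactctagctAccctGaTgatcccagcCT
Dcpp3, chr17:23919184-23919273, exon 4: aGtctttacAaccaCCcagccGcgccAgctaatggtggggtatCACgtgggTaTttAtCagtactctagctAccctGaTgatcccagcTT

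For a read of 90 bases, 62.6% of the positions in the last 300 bases of Dcpp1 would be found in no other transcript, against 62.1% for the longest Dcpp2 transcript and 62.1% for the 4-exon Dcpp3 transcript. The read length is not given in the sources used here. No transcript outside the 3 genes shared such a stretch with them. UMIs of these libraries mark 3′ ends and were not divided by transcript length, and a UMI total compares the 3 genes only as far as their reads could be told apart. Reads in the shared end were a loss for every paralog, and their part in the ratios below was not tested.

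The stretches before the start sites are shown because the 3 genes were abundant together in many barcodes. They come from RefSeq in the GRCm38.p6 build, where all 3 genes were matched by symbol, and capitals mark TATAA.
Dcpp1, chr17:23880756-23880875: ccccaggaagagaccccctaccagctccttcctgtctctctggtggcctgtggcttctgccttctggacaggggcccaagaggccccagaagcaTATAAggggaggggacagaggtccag
Dcpp2, chr17:23898602-23898721: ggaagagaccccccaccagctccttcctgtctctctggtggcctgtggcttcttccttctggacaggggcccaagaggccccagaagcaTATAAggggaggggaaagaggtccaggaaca
Dcpp3, chr17:23917338-23917457: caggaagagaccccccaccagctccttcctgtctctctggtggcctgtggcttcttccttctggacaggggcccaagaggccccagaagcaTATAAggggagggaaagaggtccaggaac

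Over 250 bases before the start, identity was 93.3% between Dcpp1 and Dcpp2, 94.9% between Dcpp1 and Dcpp3, and 96.4% between Dcpp2 and Dcpp3. TATAA lay 26, 31 and 29 bases before the start of Dcpp1, Dcpp2 and Dcpp3, and 22.8% of 32851 mouse promoters of the same length hold it on either strand. TGACG, the core of a cAMP response element, lay 192 bases before Dcpp1 and 195 bases before Dcpp3. It was not in the Dcpp2 window, and 17.8% of promoters hold it. The E-box forms CAGCTG and CATATG and the letters ACGTG were in none of the 3 windows, against 13.0%, 3.46% and 16.6% of promoters. These letters were picked with the sequences in view, TGACG and ACGTG can overlap, and a match is not evidence of binding.

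Together the Dcpp genes took 12.7% of all UMIs of the 2 glands. Dcpp3 had 8096159 UMIs, or 6.47% of all, and ranked 3rd among the genes. Dcpp2 had 4907354 UMIs (3.92%) and ranked 5th, and Dcpp1 had 2923392 UMIs (2.34%) and ranked 7th. For scale, Mucl2 was the most abundant gene, with 41.2% of all UMIs, whereas Muc19 had 32863 UMIs. At least 1 UMI of Dcpp3 was in 99.7% of barcodes, of Dcpp2 in 98.6% and of Dcpp1 in 94.0%, so presence of a UMI does not set any group of barcodes apart.

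The amount per barcode was very uneven. The sum of the 3 genes was 14 UMIs at the lower quartile, 25 at the median, 218 at the upper quartile and 28832 at the 99th percentile, and the highest barcode held 84089. As a share of a barcode's UMIs, it was 0.705% at the median, 8.99% at the upper quartile, 49.6% at the 90th percentile and 91.5% at the most. The 157 barcodes with the most Dcpp UMIs, 1% of all, held 36.8% of them. Barcodes with at least 20% of their UMIs on the 3 genes are called Dcpp-rich here. There were 3307 of them (21.1%, 20.4 to 21.7), and the other 12400 barcodes held only 4.995% of the Dcpp UMIs. This is a range and not a cell type: 335 barcodes lay at 20 to 25% and 299 at 15 to 20%. A smaller set of 404 barcodes (2.57%, 2.33 to 2.83) had at least 10000 Dcpp UMIs and held 68.1% of all Dcpp UMIs. It was not wholly within the Dcpp-rich set, since its lowest Dcpp share was 17.4%.

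Dcpp-rich barcodes were mostly shallow, and the 404 were deep. The Dcpp-rich set had a median of 2388 UMIs and 359 genes per barcode, and a median of 1288 UMIs outside the Dcpp genes. Among the 404, the medians were 32487 UMIs, 1489 genes and 82.1% of UMIs on Dcpp. Barcodes that were not Dcpp-rich had a median of 2684 UMIs and 785 genes. The median share of mitochondrial UMIs was 1.90% in Dcpp-rich barcodes, 0.653% in the 404 and 2.81% in barcodes that were not Dcpp-rich. Of the Dcpp-rich barcodes, 201 had under 200 genes, and a filter at 200 genes and 20% mitochondrial UMIs kept 3100 of them and all 404 deep ones.

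**Figure D1:**
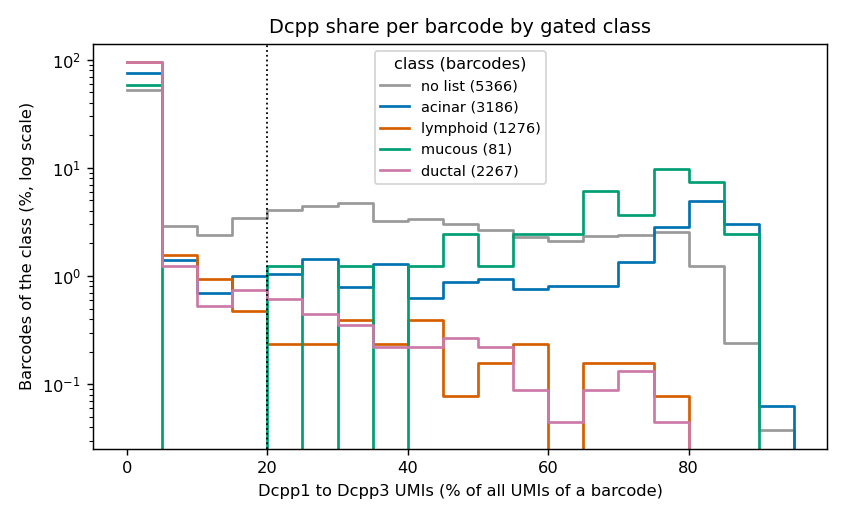
Share of each barcode's UMIs on Dcpp1 to Dcpp3 (x axis, % of UMIs in steps of 5) against the share of barcodes of a class (y axis, %, log scale) for 5 gated classes, with a dotted line at 20%. Most barcodes of every class lie in the lowest step, and the mucous and acinar classes have a separate rise near 80%, whereas the barcodes with no list spread over the whole range from 20 to 80%.

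Barcodes were put into classes by 8 marker lists from which Dcpp1 to Dcpp3, Mucl2 and Muc19 were kept out. A barcode joined a class when at least 3 genes of that list had a UMI and no other list reached 3, with the mucous list taken before the acinar one. The classes are gates on a few genes and not annotated cell types. The mucous gate rested on Spdef, Galnt12, B3gnt6 and Agr2, since Tff2, Muc5b and St6galnac1 had 0 UMIs in all 81 mucous-gated barcodes. B3gnt6 had a UMI in all 34 Dcpp-rich barcodes of this class. It was also among the leading genes of a cluster of 448 barcodes, all Dcpp-rich, that is described below. The gate is thus not independent of Dcpp, and the level of this class is not read as that of mucous cells.

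The mucous class of 81 barcodes had the highest Dcpp level, at 929 UMIs of Dcpp1 per 10000 UMIs, 1459 of Dcpp2 and 2524 of Dcpp3. The 5366 barcodes of no list followed at 360, 648 and 991 per 10000. The 3186 acinar-gated barcodes came next at 240, 403 and 678 per 10000, and the 1420 barcodes that passed several lists stood at 197, 305 and 512. Vascular (376 barcodes), myeloid (1314), mesenchymal (368) and basal (53) classes had 869, 559, 478 and 335 UMIs of the 3 genes together per 10000. The lymphoid class (1276) had 286 (284 to 288) and the ductal class (2267) had 181 (180 to 182), the lowest of all. Every neighbouring pair in this order was farther apart than the counting intervals, but no spread over samples can be given. In each class Dcpp3 was above Dcpp2 and Dcpp2 above Dcpp1.

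**Figure D2:**
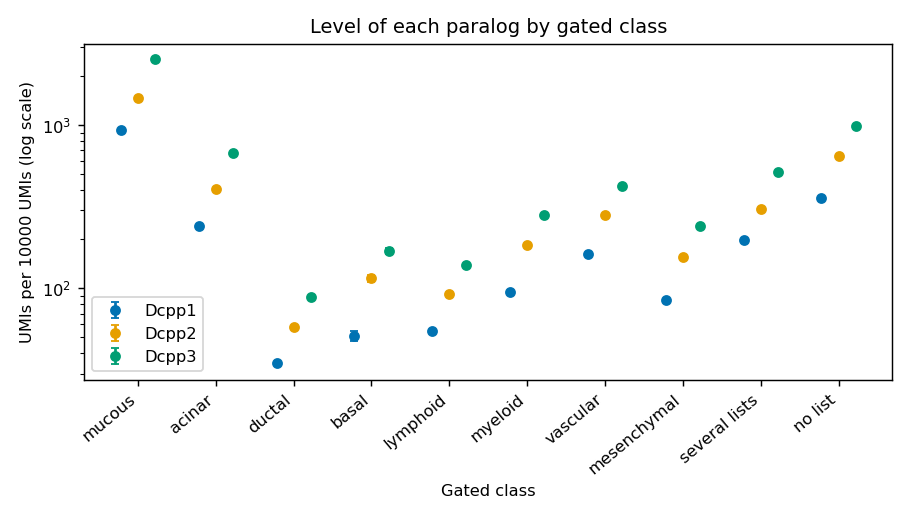
Level of Dcpp1, Dcpp2 and Dcpp3 in each gated class (y axis, UMIs per 10000 UMIs, log scale), with exact Poisson 95% intervals that are mostly smaller than the points. Dcpp3 lies above Dcpp2 and Dcpp2 above Dcpp1 in every class, from the mucous class at the top to the ductal class at the bottom.

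These class means were set by the Dcpp-rich barcodes inside each class. Dcpp-rich were 34 of 81 mucous barcodes (41.98%, 31.1 to 53.5), 2079 of 5366 barcodes of no list (38.7%, 37.4 to 40.1) and 689 of 3186 acinar barcodes (21.6%, 20.2 to 23.1). They were 65 of 376 vascular (17.3%), 205 of 1420 several-list (14.4%), 113 of 1314 myeloid (8.60%), 28 of 368 mesenchymal (7.61%), 62 of 2267 ductal (2.73%) and 30 of 1276 lymphoid barcodes (2.35%). Of the 404 deep barcodes, 298 were acinar-gated, 28 mucous-gated, 66 passed several lists and 10 passed none. The acinar list itself reached 3 genes in 97.0% of the 404, against 27.5% of all Dcpp-rich barcodes and 27.1% of the others. Barcodes of no list made up 62.9% of the Dcpp-rich set, with a median of 370 genes over that class.

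Without the Dcpp-rich barcodes, a choice that uses the Dcpp values themselves, the mucous and acinar classes were the lowest. The mucous class was at 26.6 UMIs per 10000 (25.2 to 28.0) and was the lowest, the acinar class was next at 38.3 and the ductal class at 78.1. The lymphoid class was then at 119, several lists at 122, basal at 133, myeloid at 139, mesenchymal at 154, vascular at 196 and no list at 199. The ratio of the acinar to the lymphoid level was 4.62 with all barcodes and 0.321 without the Dcpp-rich ones. Depth differs widely between these classes, with a median of 15618 UMIs in acinar and 1882.5 in lymphoid barcodes. Counted per barcode, the medians without the Dcpp-rich barcodes were 42 UMIs in acinar, 31 in several-list, 21 in mucous and 15 in lymphoid barcodes, and all other classes lay between 15 and 19.

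Lymphocytes are not known to make Dcpp proteins, so the lymphoid class is given as the reference level. It still holds 30 Dcpp-rich barcodes, which lift its mean from 25.5 to 61.7 Dcpp UMIs per barcode, and where its UMIs came from was not tested. A UMI of Dcpp1 was in 91.4% of lymphoid and 97.7% of acinar barcodes. With every barcode thinned to 500 UMIs, which left out none, the share was 52.3% (49.5 to 55.04) in lymphoid and 42.3% (40.6 to 44.0) in acinar barcodes. For Dcpp2 the thinned shares were 72.8% in lymphoid and 50.5% in acinar barcodes, and for Dcpp3 they were 85.8% and 58.5%. The thinned share in the acinar class was below that of the lymphoid class and is not read as expression. The thinned means kept the other order, at 5.47 UMIs of Dcpp3 per lymphoid and 37.3 per acinar barcode, since the acinar mean rests on its Dcpp-rich barcodes.

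The proportions of the 3 genes were nearly the same in every class. Over the 4471 barcodes with at least 100 Dcpp UMIs, the median share in the Dcpp UMIs was 18.4% for Dcpp1, 31.9% for Dcpp2 and 49.7% for Dcpp3. The pooled shares were 18.7%, 30.1% and 51.2% in the 404 deep barcodes. In lymphoid barcodes that were not Dcpp-rich they were 18.1% (17.6 to 18.5), 31.9% (31.4 to 32.5) and 49.998% (49.4 to 50.6). In ductal barcodes that were not Dcpp-rich they were 18.0%, 32.4% and 49.6%, and in acinar ones 17.8%, 30.8% and 51.4%. Mucous barcodes that were not Dcpp-rich held 1443 Dcpp UMIs in all, of which 16.7% (14.8 to 18.7) were Dcpp1, 30.9% Dcpp2 and 52.4% Dcpp3. The barcodes with few Dcpp UMIs thus carried the same mixture as the deep ones to within a few percentage points.

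Between single deep barcodes, however, the share of Dcpp1 varied far more than that of the other genes. The deep barcode with the lowest Dcpp1 share held 69 UMIs of Dcpp1, 7772 of Dcpp2 and 13186 of Dcpp3, a Dcpp1 share of 0.328%. The barcode at the median held 9606, 13489 and 24302 UMIs, a share of 20.3%, and the highest held 7229, 5733 and 9172 UMIs, a share of 32.7%. The ratio of Dcpp2 to Dcpp3 in these 3 barcodes barely moved, whereas Dcpp1 ran from far below Dcpp2 to above it.

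Over the 404 barcodes, the standard deviation of the log2 ratio was 0.11 for Dcpp2 over Dcpp3, 1.19 for Dcpp1 over Dcpp2 and 1.21 for Dcpp1 over Dcpp3. Counting alone would give about 0.022, 0.036 and 0.035. The log2 UMIs of Dcpp2 and Dcpp3 had a Pearson r of 0.99 across these barcodes, against 0.30 for Dcpp1 with Dcpp2 and 0.28 for Dcpp1 with Dcpp3. These correlations describe barcodes that share 1 matrix and a range of depth. Dcpp2 and Dcpp3 therefore kept a nearly fixed ratio, with Dcpp3 the higher, while log2 Dcpp1 over Dcpp2 ran from −6.81 to 0.47. The middle 90% of barcodes lay between −3.41 and 0.13 for log2 Dcpp1 over Dcpp2 and between −0.92 and −0.57 for log2 Dcpp2 over Dcpp3.

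**Figure D3:**
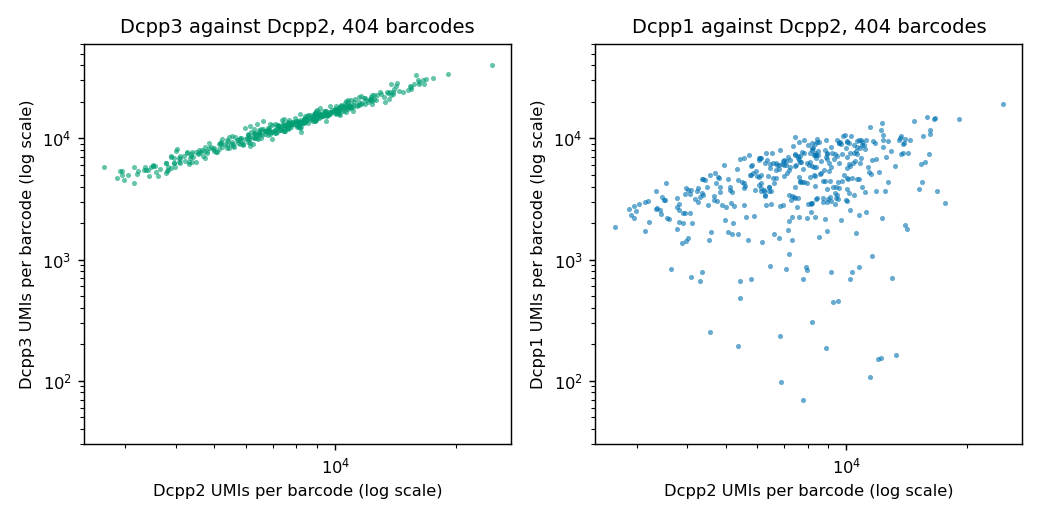
UMIs per barcode (both axes, log scale) of Dcpp3 against Dcpp2 (left) and of Dcpp1 against Dcpp2 (right) in the 404 barcodes with at least 10000 Dcpp UMIs. The left points follow a narrow line (Pearson r of log2 UMIs 0.99), whereas the right points spread down to 69 UMIs of Dcpp1 (r 0.30).

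The Dcpp1 share formed 1 broad hump with a tail toward 0 and no gap. Of the 404 barcodes, 14 had under 2% of their Dcpp UMIs on Dcpp1, and the fullest step of 2 percentage points was 22 to 24%, with 54 barcodes. The same pattern held at lower depth. In the 1501 barcodes with 1000 to under 10000 Dcpp UMIs the standard deviations were 0.15 for Dcpp2 over Dcpp3, 1.11 for Dcpp1 over Dcpp2 and 1.13 for Dcpp1 over Dcpp3. In the 2566 barcodes with 100 to under 1000 they were 0.24, 1.12 and 1.14. In the 298 acinar-gated deep barcodes they were 0.10, 1.27 and 1.28, and in the 33 deep barcodes with at least 20 Muc19 UMIs they were 0.096, 0.95 and 0.97. The variance of the Dcpp1 share was 1037 times that of binomial sampling in the 404. In the barcodes of each class that were not Dcpp-rich it was 0.908 times (mucous) to 3.33 times (several lists), with 1.22 in lymphoid and 2.77 in acinar barcodes. This ratio grows with the number of UMIs behind each share, so at their low counts it does not show whether the spread differed.

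No gene compared had a strong rank correlation with the Dcpp1 share. The comparison covered 2348 genes that passed a detection limit of 20% of barcodes. Across the 404 barcodes, the largest Spearman correlation with the Dcpp1 share among them was −0.25, for Scgb2b27, a secretoglobin of serous acinar cells. The largest positive ones were 0.18 for Eif1, a translation initiation factor, and 0.18 for Rpl13a, a ribosomal protein. Correlations this weak in sparse counts are no finding, and they do not show that a tie is absent. The 134 barcodes with the lowest Dcpp1 share (0.328 to 15.6%) had a median of 2463 UMIs of Dcpp1, 8794 of Dcpp2 and 15144 of Dcpp3. The 135 with the highest (23.3 to 32.7%) had 6898, 7136 and 11709. The median total of the 3 genes was 25838.5 in the low set and 26114 in the high set, so the totals were alike while the mixture differed. Whether the spread in Dcpp1 follows the gland, the mouse or the library cannot be told apart in a pooled matrix.

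Mucl2 and the Dcpp genes were set side by side as shares of the same barcodes. Of the 3307 Dcpp-rich barcodes, 1939 had under 20% of their UMIs on Mucl2 and 1368 had at least 20% (41.4%, 39.7 to 43.1). Of the other 12400 barcodes, 6549 had at least 20% Mucl2 (52.8%, 51.9 to 53.7) and 5851 did not. Among the 404 deep barcodes only 14 reached 20% Mucl2, and the median Mucl2 share was 0.889%, below the 6.68% of lymphoid barcodes that were not Dcpp-rich. Since both are shares of 1 total, a high share of the one lowers that of the other.

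**Figure D4:**
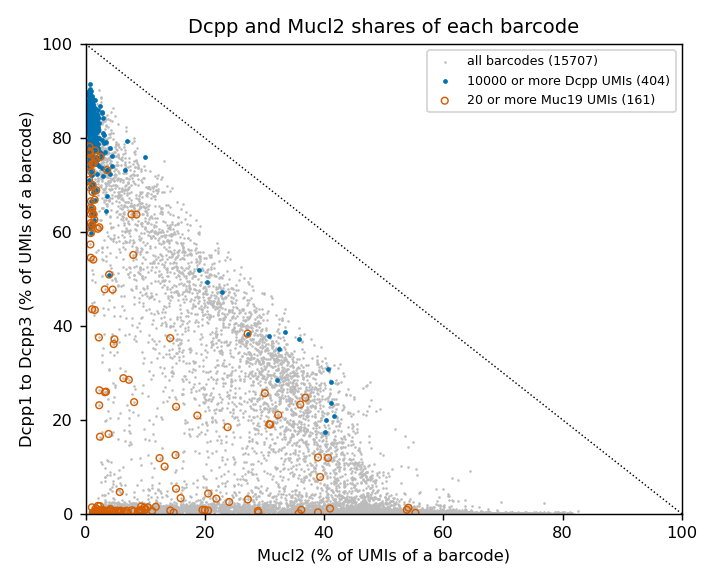
Share of each barcode's UMIs on Mucl2 (x axis, %) and on Dcpp1 to Dcpp3 (y axis, %) for all 15707 barcodes (grey), with the 404 barcodes of at least 10000 Dcpp UMIs in blue, the 161 of at least 20 Muc19 UMIs as orange rings, and a dotted line where the shares add to 100%. The blue points crowd at the upper left, with a median of 82.1% Dcpp, and the rings lie mostly at the left. Of the rings, 89 are under 10% Dcpp, 38 at 10 to 60% and 34 at 60% or above.

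With the Dcpp UMIs taken out of the total, Mucl2 stood at 2636 UMIs per 10000 in Dcpp-rich barcodes, 1413 in the 404 deep ones and 5902 in acinar barcodes that were not Dcpp-rich. The lymphoid class without Dcpp-rich barcodes had 1268 per 10000 on the same scale. Per barcode, the deep set held a mean of 1033 and a median of 297 Mucl2 UMIs, against 267 and 121.5 in those lymphoid barcodes.

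Muc19, like Mucl2, was found in barcodes with and without many Dcpp UMIs. At least 20 Muc19 UMIs were counted in 161 barcodes. Of these, 89 had under 10% Dcpp (55.3%, 47.3 to 63.1), 38 had 10 to 60% and 34 had at least 60% (21.1%, 15.1 to 28.2). They made up 33 of the 404 deep barcodes (8.17%), 62 of the Dcpp-rich barcodes (1.87%, 1.44 to 2.40) and 99 of the other 12400 (0.798%, 0.649 to 0.971). Muc19 was at 17.1 UMIs per 10000 UMIs outside Dcpp in Dcpp-rich barcodes, 27.2 in the 404, 1.05 in acinar barcodes that were not Dcpp-rich and 0.248 in lymphoid ones.

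The mucous class also held barcodes with and without many Dcpp UMIs. Its 47 barcodes that were not Dcpp-rich held 0, 4 and 27 UMIs of Dcpp1 at the lowest, median and highest, 1, 7 and 37 of Dcpp2, and 2, 11 and 75 of Dcpp3. The 34 Dcpp-rich ones held 85, 3855.5 and 14347 of Dcpp1, 474, 7153 and 19045 of Dcpp2, and 681, 11879 and 34231 of Dcpp3. The ranges of each gene did not overlap, but the groups were chosen by their Dcpp share, so this is no result about the genes. Over all barcodes the Dcpp UMIs did overlap, from 286 up in Dcpp-rich barcodes and up to 12904 in the others. Muc19, which did not enter the choice, ran from 0 over a median of 175 to 532 UMIs in the Dcpp-rich ones and from 0 over 202 to 571 UMIs in the others. A Muc19 UMI was in 67.6% of the Dcpp-rich ones and 87.2% of the others. Per 10000 UMIs outside Dcpp, Muc19 was at 176 (171 to 180) and 176 (173 to 180). These pooled levels depend on the denominator, since Mucl2 took 1181 per 10000 in the Dcpp-rich ones and 4219 in the others. In the others a few barcodes held most of it, with a median of 142 and a highest of 45154 Mucl2 UMIs. Pooled levels of other genes in the 2 parts, given next, have the same limit, and small differences or equalities between them are not read.

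A2ml1, a protease inhibitor of the macroglobulin family, was likewise abundant in both parts of the mucous class. It was at 194 per 10000 in the Dcpp-rich mucous barcodes and 165 in the others, with medians of 203.5 and 209 UMIs. Unlike Muc19, A2ml1 was also found in nearly all of the 404 deep barcodes. It had a UMI in 99.8% of them and a median of 26 UMIs, against 18.8% and 0 for Muc19. Bpifa2, an abundant secreted saliva protein of the BPI fold family, went with Dcpp. It was at 955 per 10000 (944 to 966) in the Dcpp-rich mucous barcodes and 0.960 (0.717 to 1.26) in the others, with medians of 406 and 0 UMIs. The same held in barcodes with at least 20 Muc19 UMIs, where Bpifa2 was at 527 per 10000 in the 62 Dcpp-rich ones and 4.84 in the 99 others. Of the genes that made the gate, Spdef, a transcription factor of mucous cells, was at 1.91 and 1.98 per 10000. Agr2, a disulfide isomerase needed for mucin folding, was at 3.19 (2.61 to 3.86) in the Dcpp-rich and 1.18 (0.910 to 1.51) in the other mucous barcodes. B3gnt6, which builds mucin-type sugar chains, was at 2.13 (1.66 to 2.69) and 1.31 (1.02 to 1.65). Galnt12, which starts such chains, was at 0.486 (0.278 to 0.789) and 0.923 (0.685 to 1.22), intervals that overlap, and Fcgbp, a protein of mucus, had 2 and 10 UMIs. The Dcpp-rich mucous barcodes had a median of 32638 UMIs and 2154 genes, against 5171 and 1554 in the others. Whether any of them held more than 1 cell was not tested.

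**Figure D5:**
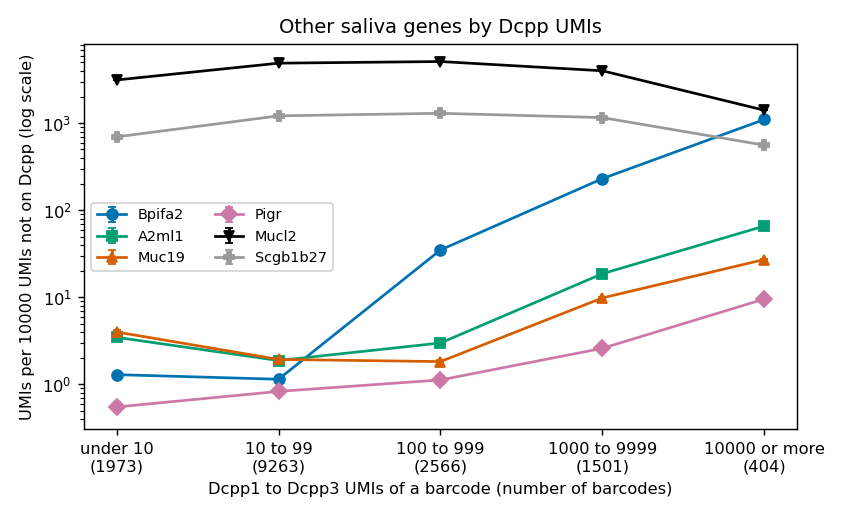
Level of 6 saliva genes (y axis, UMIs per 10000 UMIs outside Dcpp, log scale, with exact Poisson 95% intervals) by the number of Dcpp UMIs of a barcode (x axis, 5 ranges with their number of barcodes). Bpifa2 climbs from 1.15 in barcodes with 10 to under 100 Dcpp UMIs to 1106 in those with 10000 or more, A2ml1, Muc19 and Pigr are highest in the last range, and Mucl2 and Scgb1b27 are lower there than in the 3 ranges before it.

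The genes whose level was most like that of the Dcpp genes were found by the Pearson correlation of log levels per 10000 UMIs outside Dcpp over all 15707 barcodes, among 10051 genes. The barcodes share 1 matrix and differ in depth, so these values are descriptions. Bpifa2 came first (r = 0.90), followed by Pglyrp1, which binds bacterial peptidoglycan (0.82), and Wfdc18, a small whey acidic protein family member (0.77). A2ml1 (0.65), Mup6 (0.55), the potassium channel subunit Kcne1 (0.55) and Mup4 (0.55) came next. Mup4 and Mup6 are major urinary proteins of a family of near-identical copies, so their own counts are uncertain. Cldn10, a tight junction protein of secretory cells (0.35), Bglap3 (0.33) and Pigr, the receptor that carries IgA into saliva (0.30), closed the 10. Muc19 ranked 62nd (0.15) and Mucl2 ranked 284th (0.05).

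Bpifa2 had between 2.82 and 3.81 UMIs per 100 Dcpp UMIs in every group, and the counting intervals of the lowest and the highest group lay apart. It had 2.99 UMIs per 100 Dcpp UMIs in Dcpp-rich barcodes and 3.01 in the 404. Without the Dcpp-rich barcodes it had 3.28 (3.08 to 3.49) in the lymphoid class, 3.29 in the ductal, 3.69 in the myeloid, 2.90 in the vascular, 2.95 in the mesenchymal, 3.81 (3.73 to 3.89) in the acinar and 3.60 (2.69 to 4.73) in the mucous class. Barcodes of several lists had 2.82 (2.75 to 2.89), those of no list 3.67 and basal ones 3.10. Over these classes the Dcpp level itself ran from 26.6 to 199 per 10000. Wfdc18 did not keep such a proportion, at 1.76 UMIs per 100 Dcpp UMIs in Dcpp-rich and 40.2 in ductal barcodes that were not. Pglyrp1 was at 0.272 per 100 in the Dcpp-rich barcodes. Without the Dcpp-rich ones it was at 0.283 in the myeloid, 1.58 in the lymphoid and 11.3 (9.63 to 13.2) in the mucous barcodes. Mucl2 was at 12.6 per 100 in the Dcpp-rich and 15341 in the acinar barcodes.

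Dcpp-rich barcodes were then set beside the 2497 acinar-gated barcodes that were not Dcpp-rich, gene by gene, on levels per 10000 UMIs outside Dcpp. Of 9367 genes with at least 50 UMIs, 9121 were at least 2-fold higher (97.4%) and 18 at least 2-fold lower (0.192%). The median gene was 2.25 higher on the log2 scale, and Mucl2 alone took 5902 of 10000 UMIs in the acinar group and 2636 in the Dcpp-rich set. Changes are therefore given relative to this median gene, which leaves 1010 genes higher (10.8%) and 393 lower (4.2%). For the 404 deep barcodes, 8341 of 8600 genes were higher (97%) and 40 lower (0.465%), with a median of 2.45. Relative to the median gene, 539 were higher (6.27%) and 503 lower (5.85%). The acinar group reached 12904 Dcpp UMIs in a barcode, so it and the 404 were not wholly separate.

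Among the genes farthest above the acinar group, Bpifa2 was at 625 per 10000 in the Dcpp-rich barcodes, 1106 in the 404 and 1.46 in the acinar group, which is 6.49 above the median gene on the log2 scale for the Dcpp-rich set and 7.11 for the 404. Pglyrp1 was at 56.9, 103 and 0.140 per 10000. Mup4 was at 18.4, 35.8 and 0.0362, and Mup6 at 6.72, 12.3 and 0.0174. Kcne1 was at 6.29, 11.3 and 0.0161. Cst10, a cystatin, had 277 UMIs in the Dcpp-rich and 3 in the acinar barcodes.

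The other places went to genes with at most 11 UMIs in the acinar group. Like Cst10, they passed the limit of 50 UMIs only through the Dcpp side and so had to stand far above. Tulp2 had 103 UMIs in the Dcpp-rich barcodes and 2 in the acinar group, C2cd4a 71 and 1, E230016K23Rik 62 and 1, and the sialyltransferase gene St8sia6 51 and 1. Nrg1, a growth factor, had 56 UMIs in the 404 and 2 in the acinar group, and Gm20467 had 52 and 2. Sox2, a transcription factor of progenitor cells, had 265 UMIs in the 404 deep barcodes (0.897 per 10000) and 11 in the acinar group (0.00184).

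On the lower side, the immunoglobulin genes Igkc, Igha and Jchain, which are products of plasma cells, led the Dcpp-rich set. Igkc was at 0.0566 per 10000 in the Dcpp-rich and 0.418 in the acinar barcodes, or log2 −5.13 relative to the median gene. Esp8, an exocrine gland peptide, was at 0.0525 and 0.172, and Dleu7 had 2 and 52 UMIs. In the 404, Smgc, a secreted protein of the neonatal submandibular gland, was at 2.89 against 15.3 per 10000. Col11a1 and Pdk4 had 1 and 2 UMIs in the 404, against 186 and 324 in the acinar group. Apart from Smgc, each of these lower genes had under 50 UMIs on the Dcpp side. They passed the limit of 50 UMIs only through the acinar group, which favours a place on the lower side.

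The genes of saliva proteins moved apart, in a list that was drawn up with earlier results of these data known and is no independent evidence. Of the 18 of 23 listed that had enough UMIs, 7 were at least 2-fold higher than the median gene in Dcpp-rich barcodes, 9 lower and 2 neither, against 10.8% and 4.2% of all genes. In the 404, 5 were higher, 10 lower and 3 neither. Without the shift to the median gene, 9 of the 18 were higher and 2 lower in Dcpp-rich barcodes, and 8 and 7 in the 404. The median of the list was −1.20 and −2.59 on the log2 scale. Bpifa2, Pglyrp1, Cst10, A2ml1 and Muc19 were higher in both sets. Mucl2, Prol1, Pip, the carbonic anhydrase Car6, lactoperoxidase (Lpo), Smgc and the secretoglobins Scgb1b27, Scgb2b26 and Scgb2b27 were lower in both relative to the median gene. Of these, Mucl2 and Scgb2b26 were also at least 2-fold lower in both sets on the levels per 10000 themselves, where Smgc was at 16.0 in the Dcpp-rich barcodes, 2.89 in the 404 and 15.3 in the acinar group. Car6, which buffers saliva, was at 63.1 per 10000 in the Dcpp-rich barcodes, 29.4 in the 404 and 123 in the acinar group. Pip, the prolactin-induced protein of saliva and tears, was at 175, 197 and 219.

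Most genes of protein entry and folding in the endoplasmic reticulum were within 2-fold of the median gene. Without the shift, all 29 were at least 2-fold higher in both sets, as were 97.4% and 97% of all genes. All 29 had enough UMIs, and relative to the median gene 3 were at least 2-fold higher in Dcpp-rich barcodes, 0 lower and 26 neither. In the 404 the counts were 4, 0 and 25. Of all genes, 10.8% were higher and 4.2% lower in the Dcpp-rich set, and 6.27% and 5.85% in the 404. The counts are not read as a result about these genes. The list's medians were 0.14 and 0.35 on the log2 scale. The members that were higher in both sets were Pdia4, a disulfide isomerase, Creld2, a folding factor, and Rcn2, a calcium-binding protein, and Pdia3 joined them in the 404. Hspa5, the main chaperone of the compartment, was at −0.03 in the Dcpp-rich set and 0.21 in the 404 relative to the median gene.

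Of 15 regulators of secretory cells, relative to the median gene, 0 were at least 2-fold higher in the Dcpp-rich set, 1 was lower and 14 were neither. Of all genes, 10.8% were higher and 4.2% lower. The lower regulator was Bhlha15, the scaling factor of serous acinar cells also called Mist1, at log2 −2.05 in the Dcpp-rich set and −1.90 in the 404. Bhlha15 belongs to the acinar marker list that gated the comparison group, so a lower value was favoured by the choice of barcodes. On the levels per 10000 the sign of Bhlha15 was the opposite, at log2 0.20 and 0.56. On these levels 14 of the 15 were at least 2-fold higher in both sets, against 97.4% and 97% of all genes. Relative to the median gene in the 404, 4 were higher and 1 lower, against 6.27% and 5.85% of all genes. The 4 were Xbp1, which drives the secretory apparatus, at 1.40, Etv1 at 1.19, Ehf at 1.16 and the stress sensor Atf6 at 1.04. Sox9 and Sox10, factors of salivary progenitors and acini, were at −0.29 and −0.50 in the 404.

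Markers of other cell types were present in the Dcpp-rich set, as they were in the other barcodes. The acinar group was gated so that no other list reached 3 genes, which keeps these markers low in it. The summed myeloid list was at 3.95 UMIs per 10000 UMIs outside Dcpp in Dcpp-rich barcodes, 2.04 in the 404, 6.67 in all barcodes that were not Dcpp-rich and 0.141 in the acinar group. The vascular list was at 2.45, 0.758, 1.52 and 0.0469, the mesenchymal list at 1.41, 0.108, 2.14 and 0.0615, and the lymphoid list at 1.90, 0.958, 3.36 and 0.179. All genes of these 4 lists had a UMI in the Dcpp-rich barcodes. In the 404, Ncr1, Cd3e, Ms4a1, Cd79b, Cldn5, Fbln1 and Dpt had 0 UMIs. The part of such markers in the gene differences above was not tested.

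When the barcodes were grouped by expression with the 3 Dcpp genes left out of the grouping, 18 clusters formed and 2406 of the Dcpp-rich barcodes (72.8%) fell into 2 of them. The first held 448 barcodes, all of them Dcpp-rich and 366 of them among the 404 deep ones, with 81.0% of its UMIs on Dcpp. The second held 2232 shallow barcodes with a median of 324 genes, of which 1958 were Dcpp-rich. In the 16 other clusters, the share of Dcpp-rich barcodes was 30.2% at the most. The other 901 Dcpp-rich barcodes lay in the 16 other clusters. Most deep barcodes were in the first cluster, which also held 82 that were not deep, and 18 were in the second. Neither was given a cell type name because no list of demilune markers apart from these genes was at hand.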

How the data were processed

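The authors deposited 1 matrix of raw UMI counts per gene and barcode from 10x 3′ libraries, and the header of the matrix names Cell Ranger 6.0.1. The submitters' processing notes name mm10 and Seurat 4.1.1. The annotation release was not given in those sources. The matrix pools 4 samples and was treated as 1, with no test. There were 0 further columns of per-sample values. The labels name 2 mice and the study's methods 3.

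All 15707 barcodes were kept, at 1374 to 141509 UMIs (median 2608) and a median of 689 genes. Scrublet in scanpy 1.11.5 called 0 barcodes, so it did not work here and no doublets were removed. Levels are summed UMIs per 10000, of all UMIs or of those outside Dcpp as stated. Gates, lists and limits (at least 3 markers, 20% Dcpp, 50 UMIs, 2-fold) and the members were chosen with earlier results of these data known, and the limit of 10000 Dcpp UMIs, the limit of 20 Muc19 UMIs and the scale relative to the median gene after the values were seen. Clustering used 2000 variable genes, 20 principal components and the Leiden method at a resolution of 0.5. Named genes were the 10 most alike by correlation, the 10 highest and 5 lowest by fold, and members of the lists. Sequences came from GENCODE M21 transcripts and RefSeq promoter tables and were compared with Biopython 1.88. Other steps ran in pandas 2.3.3, scipy 1.17.1, numpy 2.4.6 and Python 3.11.15, with plots from matplotlib 3.10.9. Level, fold and dispersion steps were tested on simulated data. Alternatives changed the gate, the denominator, the limits, the barcode filter, free RNA and high doublet scores.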

Additional observations from a re-analysis of the deposited data

How the results depend on the processing

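The mucous class stayed highest and the ductal class lowest under every alternative except that which left out the Dcpp-rich barcodes, but the order between them changed. As mean UMIs per barcode the acinar class (2985) and several lists (1558) passed no list (530). With at least 2 markers the mucous level was 2634, and mesenchymal (773) and basal (547) passed myeloid (518). The ratio of the acinar to the lymphoid Dcpp level, 4.62, was 5.17 per 10000 UMIs outside Dcpp, 48.4 as mean UMIs per barcode, 3.93 with at least 2 markers, 4.57 with at least 4, 3.42 with free RNA taken away and 4.82 without the highest doublet scores. With free RNA set from lymphoid barcodes that were not Dcpp-rich it was 3.12, and without the Dcpp-rich barcodes 0.321, both chosen after seeing the data. The 2 ways of taking free RNA away raised the lymphoid level itself, from 286 to 400 and to 442 per 10000. The lower ratios are therefore not read as values freed of background. At a limit of 40% in place of 20%, 2021 barcodes were Dcpp-rich. Thinned to 1000 UMIs, the shares of barcodes with a UMI of Dcpp1, Dcpp2 and Dcpp3 were 51.5%, 63.5% and 74.7% in acinar and 74.1%, 89.2% and 97.1% in lymphoid barcodes. Mucl2 in Dcpp-rich barcodes was at 853 per 10000 of all UMIs, 2305 with free RNA taken away, and 3030 and 1584 at limits of 10% and 40%, and in the barcodes with 10000 Dcpp UMIs at 1413. Muc19 was at 5.54, 24.7, 14.5, 23.9 and 27.2 in the same order. Of genes compared with the acinar group, 34 were lower with a minimum of 10 UMIs, 5078 were higher and 11 lower with 200, 9 lower with free RNA taken away, 3 lower at 4-fold, and 40 lower in the deep barcodes. Relative to the median gene, 1010 were higher and 393 lower. The standard deviations of the log2 ratios at 1000 to under 10000 Dcpp UMIs were 1.11, 1.13 and 0.15. The alternatives for deep barcodes, the median gene and these ratios were chosen after seeing the data. Paralog shares moved by less than their spread under each alternative run. No paired analysis was possible because all barcodes are in 1 matrix with no map to samples, and for the same reason no replicate could be left out. Depth limits what can be said of barcodes of no list, and the shared 3′ end limits the comparison of paralogs.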
